A study of Mus musculus with 2 samples.

Results

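Asns, Atf4, Ddit3, Trib3, Chac1, Sesn2, Psat1, Phgdh, Shmt2 and Slc7a11 are described here, the transcription factor ATF4 together with 9 genes of amino acid synthesis and stress that are known to lie under its control. They were taken as every probe whose RefSeq accession belongs to 1 of these 10 genes, which gave 15 probes among 41174 on the array and 10 genes among 18952 with a RefSeq match. The set was chosen by the log2 ratios of these same arrays, with Asns selected on its high ratio against low ratios of chaperones of the endoplasmic reticulum, so its value is a description and is used to support nothing. Dorsolateral prostate was compared between groups that share the strain, FVB/N, and the age, 6 months. The transgenic pool came from 6 animals of genotype ARR2PB-miR32, in which ARR2PB, an androgen-responsive composite of the probasin promoter active in prostate epithelium, drives the microRNA miR-32, and the wild-type pool came from 6 animals without the transgene. Both pools were hybridised together on 2 arrays with the dyes exchanged, the transgenic pool in Cy3 on array 1 and in Cy5 on array 2. Since each array holds the same 2 pools they count as 1 replicate, and no test of genotype was possible, no p-value is given, and each ± is the SD over the 2 arrays, which measures the technique and not the mice.

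ATF4 is a basic leucine zipper transcription factor whose protein is made mainly when the initiation factor eIF2 is phosphorylated, by kinases that sense lack of amino acids, unfolded protein in the endoplasmic reticulum, viral RNA or lack of haem. Its control is in large part translational, so the level of Atf4 mRNA need not follow that of the protein, which was not measured here. With partners of the C/EBP family ATF4 binds elements in the promoters of genes that make, import and charge amino acids, and prolonged activity adds the stress genes Ddit3, Trib3 and Chac1. The prostate is a secretory gland with a heavy load of protein synthesis.

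The product of the transgene and the elements through which ATF4 acts are shown first. The mature 5p arm of mouse miR-32, from RefSeq at chr4:56895272-56895293 on the minus strand of GRCm38.p6, has its seed, bases 2 to 8, in capitals.
mmu-miR-32-5p: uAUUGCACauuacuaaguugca

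The letters TGATGNAA, the core of C/EBP-ATF response elements, were searched on both strands from 250 bases before to 50 bases after each annotated start. All 10 members had a window in the RefSeq promoter table, and Psat1 had more than 1. A match lay in windows of Asns, Chac1, Slc7a11 and Trib3 and in none of those of the other 6 genes, while 3.97% of the 32851 windows in the whole table held one. A match is a description of letters and no evidence of binding. The stretches of Asns (chr6:7693210-7693292, minus strand), Chac1 (chr2:119350992-119351116, plus strand) and Slc7a11 (chr3:50443614-50443739, minus strand) are given to show where the letters lie and what surrounds them, with the matching letters in capitals.
Asns: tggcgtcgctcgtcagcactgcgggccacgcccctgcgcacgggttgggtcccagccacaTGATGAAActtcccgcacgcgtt
Chac1: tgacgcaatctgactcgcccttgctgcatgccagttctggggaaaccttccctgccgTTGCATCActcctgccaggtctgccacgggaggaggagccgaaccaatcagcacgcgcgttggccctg
Slc7a11: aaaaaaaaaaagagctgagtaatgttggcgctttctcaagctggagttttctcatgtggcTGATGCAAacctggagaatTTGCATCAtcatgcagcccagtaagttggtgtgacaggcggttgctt

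The match of Asns began at base -23 from the annotated start. It was followed at base -3 by GTTACA, letters that in human ASNS form a second nutrient-sensing element beside the first, and GTTACA was found in 8.25% of all windows. The printed stretch ends at base -1, so only the first letters of GTTACA are shown and the rest lie past the annotated start. Slc7a11 had a match on each strand, at bases -66 and -47, Chac1 had 1 on the minus strand at base -193, and the match of Trib3 lay after the start, at base 15.

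Depth set what could be read. A probe counted as detected if the same pool was well above background on each array, and 10433 genes had such a probe and a ratio from each array. In Cy3 58.3% (array 1) and 57% (array 2) of spots were well above background, but in Cy5 42.1% and 21.1% were, so array 2 read the transgenic pool in the weakest channel of all. Each member probe was a single spot. Repeat spots of 1 probe differed little within an array (median SD in log2 ratio of 0.17 on array 1 and 0.23 on array 2, over the probes printed 10 times). Between the arrays the SD was larger, with a median of 0.28 and a 90th percentile of 0.78 over all detected genes. To be called, a gene had to reach 1.5-fold on both arrays, 0.58 on the log2 scale, and the same way on each.

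Of the 10 members 9 were detected, 1 was higher in the transgenic pool (Asns), none was lower and 8 were neither. By the same rule 2.21% of all detected genes were called, 0.911% higher and 1.3% lower. More genes, 3.05%, passed 1.5-fold on both arrays in opposite directions, and Pearson's r between array 1 and array 2 was -0.03, taken across genes, which are not independent replicates. Since the rule used the ratio of Asns, nothing is read from its count. Over the 9 detected members the log2 ratios had a median of -0.08, beside -0.06 for all detected genes, and this median took either sign depending on the processing. Both arrays were above 0 for Asns, Chac1, Sesn2 and Phgdh, both below 0 for Atf4 and Ddit3, and of opposite sign for Trib3, Psat1 and Shmt2. Among all 10433 detected genes 17.5% were above 0 on both arrays, 2921 genes were below 0 on both and 54.5% had opposite signs. With median centring the median of all detected genes moved to -0.57, and the means of Chac1 (-0.32), Sesn2 (-0.55) and Phgdh (-0.71) were below 0 but Chac1 and Sesn2 were still above that median.

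**Figure D1:**
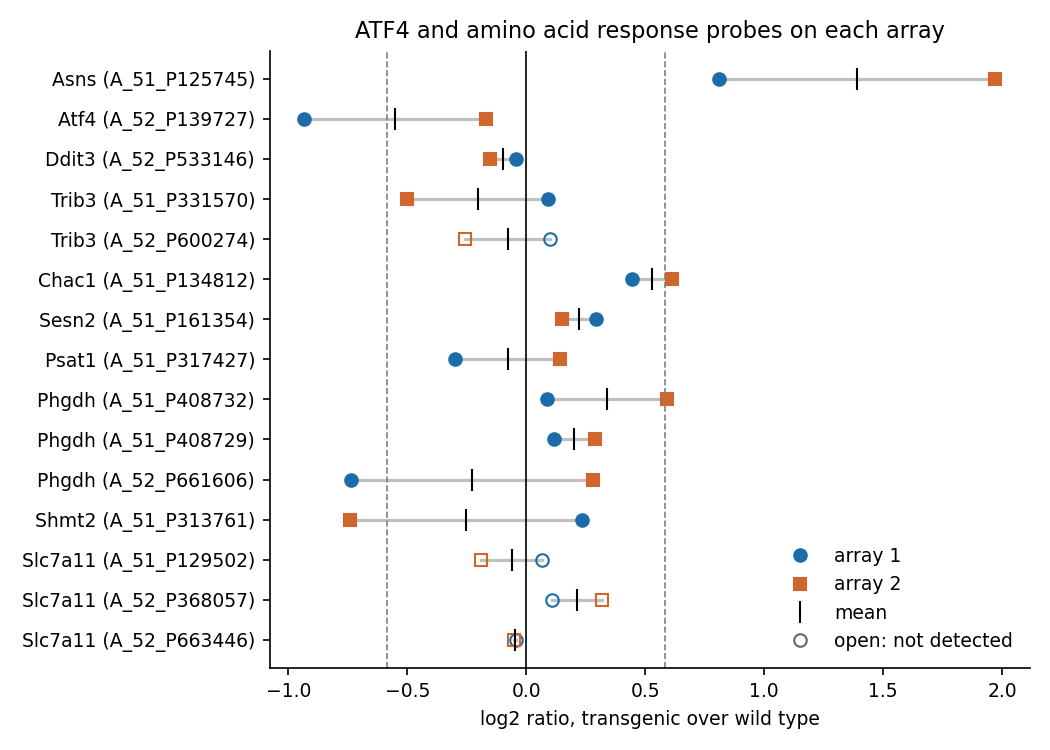
Log2 ratio of the transgenic over the wild-type pool for each of the 15 member probes, on array 1 (circles) and array 2 (squares), with the mean as a bar and dashed lines at 1.5-fold. Asns is the only probe beyond the upper line on each array, and open symbols mark probes that were not detected.

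Asns encodes asparagine synthetase, which makes asparagine from aspartate with glutamine as the nitrogen donor. Its normalized log2 intensity was 11.96 and 12.78 in the transgenic pool on arrays 1 and 2, against 11.15 and 10.81 in the wild-type pool. The transgenic pool was thus the brighter on each array after normalization. The log2 ratio was 0.81 on array 1 and 1.97 on array 2, a mean of 1.39 ± 0.82 or 2.62-fold, which placed Asns at rank 21 from the top among 10433 detected genes. The arrays differed in how far Asns stood out, with rank 381 on array 1 and rank 13 on array 2. Before any dye correction the spot had a net median intensity of 4450 in the transgenic pool and 3272 in the wild-type pool on array 1, and 2405 and 3083.5 on array 2, where the transgenic pool carried the weak dye. The order on array 2 therefore rests on the correction between dyes. The scanner software's own dye correction gave 0.93 and 1.51, and the authors' deposited table gave 0.93 and 1.49.

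With median centring, which removes no intensity-dependent dye effect, the call of Asns ended at 0.74 on array 1 and 0.08 on array 2. The median of all detected genes was then -1.09 on array 2, so Asns stood 1.17 above it there and 0.79 above the corresponding median on array 1. Its rank by mean ratio was 46 under that setting and between 17 and 190 under the others tried.

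**Figure D2:**
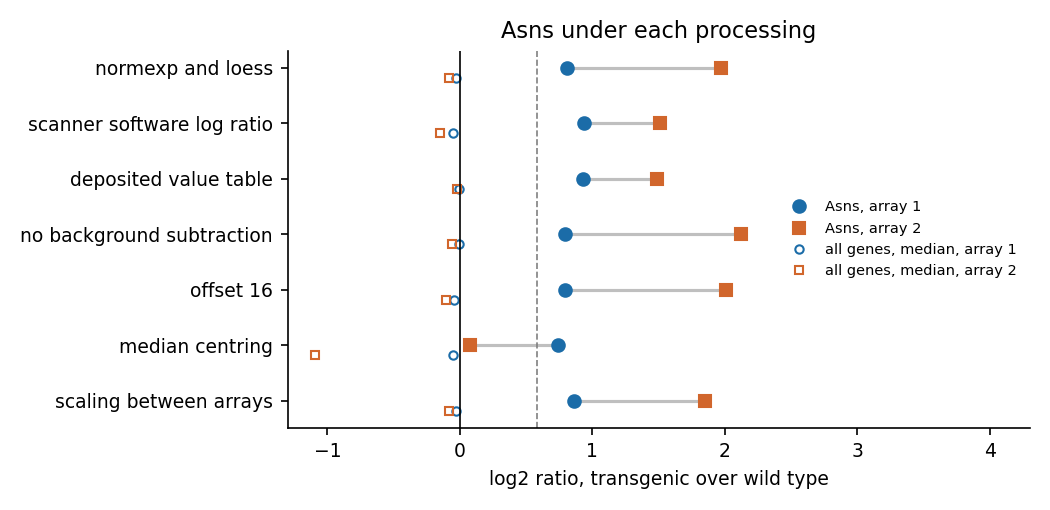
Log2 ratio of Asns on array 1 (filled circles) and array 2 (filled squares) under each processing, with the median of all detected genes on the same array as open symbols and a dashed line at 1.5-fold. Asns is above that median throughout and falls short of 1.5-fold on array 2 with median centring.

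Atf4 itself was not higher. Its normalized log2 intensity was 8.77 and 9.03 in the transgenic pool on arrays 1 and 2, against 9.71 and 9.20 in the wild-type pool. The ratio was -0.93 on array 1 and -0.17 on array 2 (mean -0.55 ± 0.54), past 1.5-fold on the first array alone. The scanner software's log ratios gave -0.61 and 0.26, so the arrays then disagreed in sign, while with median centring, which calls 5.31% of all detected genes lower, Atf4 passed the rule at a mean of -1.34. Asns and Atf4 thus lay on opposite sides of 0 on each array in the setting used.

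Ddit3 encodes CHOP, a C/EBP-related factor of prolonged stress. Its intensity was 7.14 and 7.38 in the transgenic pool, against 7.18 and 7.53 in the wild-type pool, for a mean ratio of -0.10 ± 0.08. The transgenic pool was well above background on 1 of the 2 arrays. In the scanner software's own ratios it was at -0.64 and -1.64, which would call Ddit3 lower, as they call 6.02% of all detected genes, and the net intensity behind the second value was 26 in the transgenic pool on array 2, against 179.5 in the wild-type pool. Trib3, a pseudokinase that restrains AKT and ATF4 signalling, had 7.11 and 6.68 in the transgenic pool, against 7.02 and 7.18 in the wild-type pool. Its ratios of 0.09 and -0.50 averaged -0.20 ± 0.42, again with the transgenic pool above background on 1 array only, and its other probe was not detected. Neither of these dim stress genes was higher on both arrays.

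Chac1, a gamma-glutamylcyclotransferase that breaks down glutathione, came nearest to the rule among the members outside it. Its intensity was 9.43 and 10.01 in the transgenic pool, against 8.98 and 9.40 in the wild-type pool, so each array showed the transgenic pool as the brighter. The ratios of 0.45 and 0.61 (mean 0.53 ± 0.12, 1.44-fold) fell short of 1.5-fold on array 1. The scanner software's log ratios reversed which array fell short, at 0.60 and 0.30. Sesn2, a leucine sensor that holds back mTORC1, had 8.93 and 9.05 in the transgenic pool, against 8.64 and 8.90 in the wild-type pool, a ratio of 0.22 ± 0.10. That of Chac1 was larger on each array than the median SD within arrays, and so was that of Sesn2 on array 1 but not on array 2. The SD between arrays is larger, with a median of 0.28 and a 90th percentile of 0.78 over all detected genes. The mean ratio of Sesn2 was below both of these, and that of Chac1 was below the latter.

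**Figure D3:**
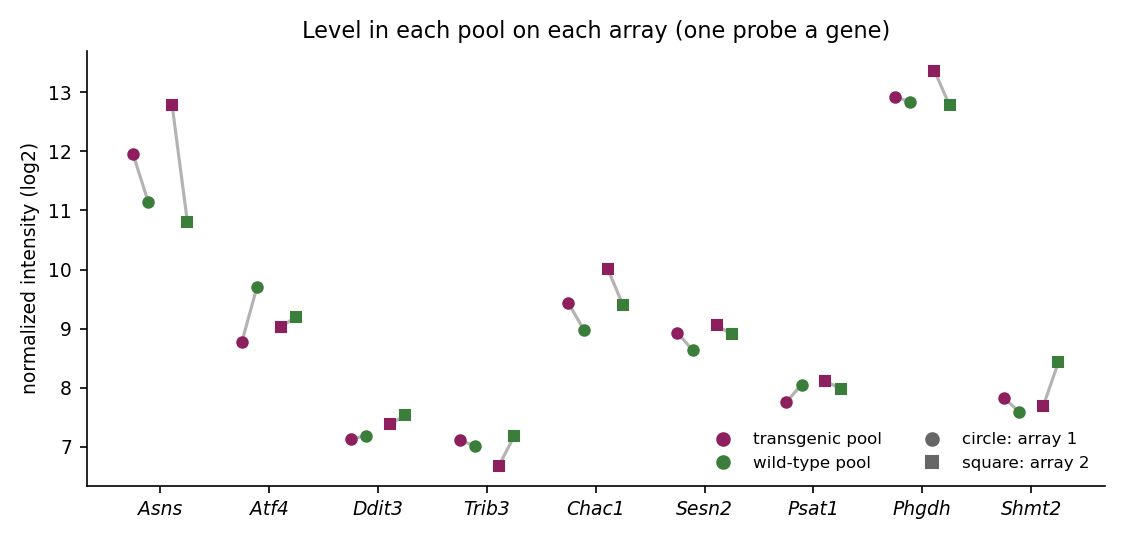
Normalized log2 intensity of each detected member in the transgenic pool (purple, left) and the wild-type pool (green, right), with array 1 as circles and array 2 as squares. The pools are separated most for Atf4 on array 1 and for Asns on array 2, and heights are not comparable between genes because probes differ in brightness.

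The serine and glycine pathway was measured by 3 members. Phgdh, phosphoglycerate dehydrogenase, begins serine synthesis and was the only member with several detected probes. Its brightest probe had 12.92 and 13.37 in the transgenic pool, against 12.84 and 12.78 in the wild-type pool, a ratio of 0.34 ± 0.36. The other probes gave 0.20 ± 0.12 and -0.23 ± 0.72, and the last of these was at -0.74 on array 1 and 0.28 on array 2, so the probes of Phgdh did not share a sign on array 1. Psat1, the aminotransferase of the next step, had 7.75 and 8.12 in the transgenic pool, against 8.05 and 7.97 in the wild-type pool, a ratio of -0.08 ± 0.31. Shmt2, the mitochondrial enzyme that turns serine into glycine and a one-carbon unit, had 7.83 and 7.69 in the transgenic pool, against 7.59 and 8.43 in the wild-type pool. Its ratios of 0.23 and -0.74 averaged -0.25 ± 0.69, and the transgenic pool was well above background on array 1 only. For Psat1 and Shmt2 the arrays disagreed in sign.

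Slc7a11 encodes xCT, the transporter that imports cystine in exchange for glutamate. None of its 3 probes was detected, since 1 was well above background on each array in the Cy3 channel only and the others in neither pool. Their mean ratios of -0.06, 0.21 and -0.05 are therefore not read as levels.

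**Figure D4:**
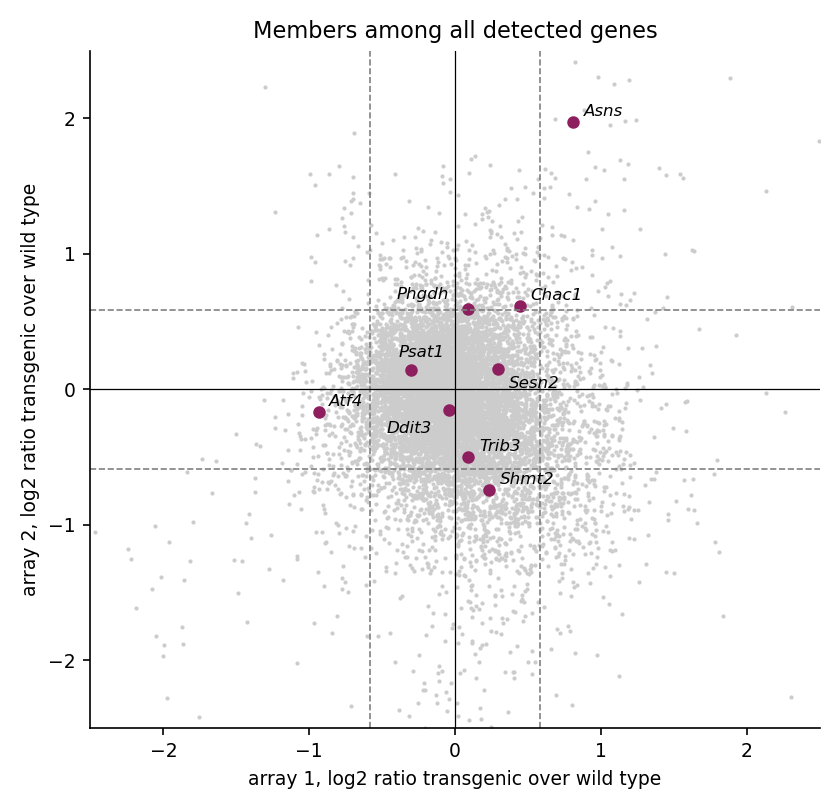
Log2 ratio of transgenic over wild type on array 2 against array 1 for all 10433 detected genes (grey, 42 outside the axes) and the 9 detected members (purple), with dashed lines at 1.5-fold. Asns is alone among the members in the upper right corner, and Atf4 passes the lower line on array 1 only.

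The rest of the pathway was read from lists of other genes. Of all detected genes 0.911% were higher and 1.3% lower by the same rule, and their median was -0.06. Of 17 detected among 21 other ATF4 targets and partner factors, 1 was higher, none was lower, and 16 did not pass the rule (list median -0.15). The higher gene was Sqstm1, which encodes the autophagy receptor p62 and is also a target of the factor NRF2, at 0.69 on array 1 and 1.56 on array 2 (mean 1.12 ± 0.62). It was no longer called in the scanner software's ratios (0.34 and 3.04 on arrays 1 and 2, mean 1.69) or in the authors' deposited table (0.34 and 3.01, mean 1.68), where array 1 fell short and the mean was larger, or with median centring, where its mean was 0.11. Atf3, an ATF4-induced factor, was at -0.68 ± 0.50 and Nupr1, a stress-induced chromatin protein, at -0.55 ± 1.11, with neither past the rule. Atf3 passed the detection filter through the wild-type pool alone, so the filter itself favours a lower ratio for it. Vegfa, an angiogenic factor, was at 0.22 ± 0.60, with the transgenic pool well above background on 1 array only. The other probes of Vegfa were at -0.02 and -0.01. Cebpb, Fgf21, Jdp2 and Cth were not detected.

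No gene of the eIF2 branch passed the rule among 14 detected of 15, with a median of -0.05. The 12 of these genes whose arrays disagreed in sign included Eif2b2 (-0.93 ± 1.54) and Eif2b4 (-0.70 ± 1.46), subunits of the exchange factor eIF2B. Eif2ak3, which encodes the kinase PERK, was at 0.23 ± 0.42, and Gcn1, an activator of the amino acid sensor GCN2, at 0.33 ± 0.23 with a second probe at -0.20. A second probe of Eif2b4 was at 0.04.

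Enzymes, transporters and synthetases of amino acid supply gave no calls either. None of 10 detected of 15 further genes of serine, proline, glutamine and one-carbon metabolism passed the rule (median -0.08). Glul, glutamine synthetase, was highest at 0.35 ± 0.78, with a second probe at -0.20, followed by Mthfd2, a mitochondrial folate enzyme, at 0.14 ± 0.97. Shmt1 and Aldh18a1 were lowest at -0.31 ± 0.41 and -0.28 ± 0.50. The probe used for Shmt1 passed the detection filter through the wild-type pool alone. None of 12 detected of 14 amino acid transporters passed it (median -0.02). The small neutral amino acid transporters Slc38a2 and Slc38a1 were the highest, at 0.40 ± 0.02 and 0.37 ± 0.46, and Slc6a9 and Slc1a5, which carry glycine and glutamine, the lowest, at -0.32 ± 1.21 and -0.25 ± 0.52. A second probe of Slc38a2 was at -0.30, and 1 of the 4 other probes of Slc38a1 was also below 0. All 20 cytosolic aminoacyl-tRNA synthetases were detected and none passed the rule (median -0.12). Dars and Sars, which charge the aspartate and serine tRNAs, were highest at 0.48 ± 0.48 and 0.43 ± 0.02, with a second probe of Dars at -0.26, and Iars and Kars, for isoleucine and lysine, were lowest at -0.40 ± 0.39 and -0.28 ± 0.99.

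The chaperones and the ATF6 and XBP1 branch of the endoplasmic reticulum were the contrast for which Asns was chosen. Of 23 detected among 24, none was higher and 3 were lower, leaving 20 that did not pass. Of all detected genes 1.3% were lower by this rule. The list median was -0.18, beside -0.06 for all detected genes. The arrays disagreed in sign for 14 of the 23, as they did for 54.5% of all detected genes. The lower genes, already known from these data, were Hspa5, Xbp1 and Dnajb9. Hspa5, which encodes the chaperone BiP, was at -0.90 and -1.45 on arrays 1 and 2, where Asns was at 0.81 and 1.97. Herpud1, a degradation factor that ATF4 also induces, had the lowest mean of the list at -1.69 ± 1.66 but reached only -0.52 on array 1, and Sec61b, a channel subunit, was at 0.14 and -1.96. The highest were Atf6 (0.36 ± 0.93, second probe -0.02) and Creld2 (0.27 ± 0.47). The call of Dnajb9, a co-chaperone of BiP, ended with the mean over its probes (-0.23), as its other probes were at 0.50 and -0.47. No test set Asns against these genes.

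**Figure D5:**
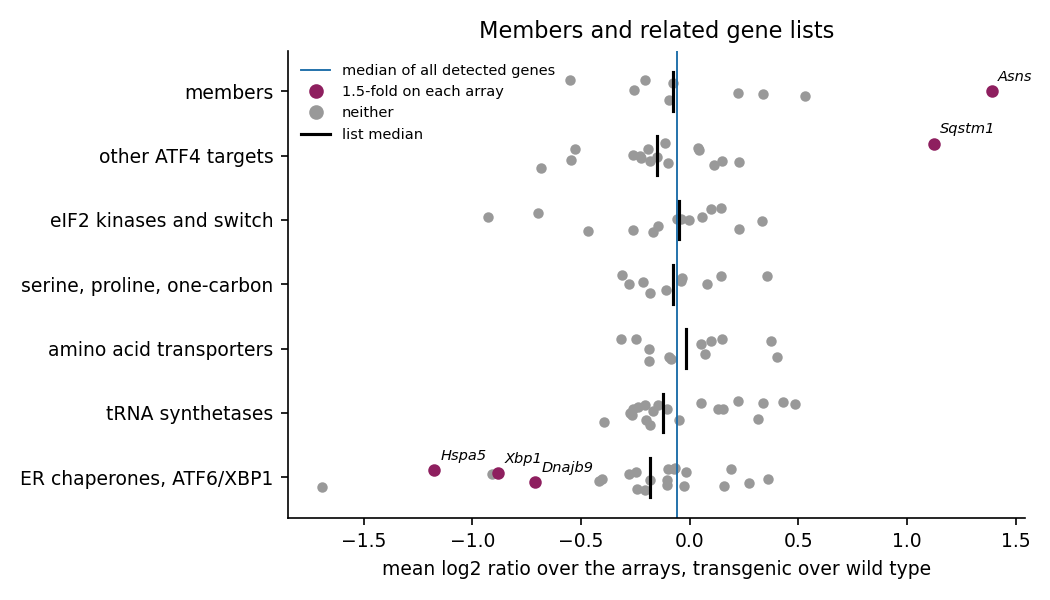
Mean log2 ratio over the 2 arrays of each detected gene in the members and in 6 related lists, with the list median as a black bar, the median of all detected genes as a blue line and genes past 1.5-fold on each array in purple. Apart from Asns, Sqstm1 is the only higher call, and the 3 lower calls are in the chaperone list.

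Markers of the tissue and of other cells were read in the same pools, where 0.911% of all detected genes were higher and 1.3% lower. All 11 luminal epithelial markers were detected, with a median of -0.02, 2 lower (Msmb and Hoxb13) and none higher. Means were above 0 for 4 of them and below 0 for 7. The highest, none past the rule, were Tgm4 (0.70 ± 0.64), Cd24a (0.64 ± 0.54) and Pbsn (0.54 ± 1.21). Luminal summed normalized intensity was 321100 in the transgenic pool against 378000 in the wild-type pool on array 1. On array 2 it was 509800 against 289300, so the arrays disagreed in direction. The transgenic sum on array 2 was mostly Tgm4 and Pbsn, with log2 intensities of 18.04 and 17.26. Of 7 adipocyte markers 6 were detected and 5 of them were lower. Their summed normalized intensity was 1513 to 1707 in the transgenic pool, against 6386 to 7249 in the wild-type pool, and Lep was not detected. Of 9 myeloid markers 6 were detected and 1 was lower, with sums of 634.4 to 787.3 in the transgenic pool, against 972.7 to 1158 in the wild-type pool, and Itgam and Cx3cr1 were not detected, while Cd68 had no matched probe. Of 8 lymphoid markers 2 were detected and 1, Jchain, was lower at -1.94 ± 0.16, while the other, Cd3e, was at 0.12 ± 0.26. Their sums were 279.5 to 330.0 in the transgenic pool, against 838.2 to 872.6 in the wild-type pool. The wild-type sums were mostly Jchain, with log2 intensities of 9.60 and 9.53 on arrays 1 and 2, against 6.60 and 6.61 for Cd3e. Of 8 seminal vesicle markers 1, Ceacam10, was detected and was lower. Among the adipocyte, myeloid, lymphoid and seminal vesicle markers, only Fabp4, Cidec and Csf1r were detected in both pools. The other detected ones passed the filter through the wild-type pool alone, so the filter itself favours lower ratios and lower transgenic sums for them. No call fell among 5 basal markers, 9 fibroblast and smooth muscle markers or the 2 detected of 5 endothelial markers, with medians of -0.03, -0.19 and -0.07, and the fibroblast and smooth muscle median was 0.49 on array 1 and -0.55 on array 2. Asns is strongly expressed in exocrine pancreas. Of 10 markers of pancreatic acinar cells 2 were detected, with Ctrb1, chymotrypsinogen B, higher at 0.93 ± 0.19 and Cel at 0.21 ± 0.14. Their sums were 855.1 to 1191 in the transgenic pool, against 529 to 629.9 in the wild-type pool. These sums were mostly Ctrb1, with transgenic log2 intensities of 10.05 and 9.44 on arrays 1 and 2, against 7.05 and 7.31 for Cel. For Cel the transgenic pool was well above background on 1 array only. Cpa1, Cela1, Pnlip, Prss2 and Ptf1a were among the 8 not detected. The call of Ctrb1 ended with median centring (0.15). The part of these cells in the ratios of Asns and the other members was not tested, and in a pool of whole tissue fewer cells of a type and less RNA per cell cannot be told apart.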

How the data were processed

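Per the labels' protocols, 100 ng of total RNA from each pool was labelled with an Agilent low-input kit. The deposited spot and background intensities are median pixel values, not yet normalized, and the deposited scanner ratio, in log10 units, sets Cy5 over Cy3 after the software (Feature Extraction, version 11.0.1.1 per the file headers) subtracted background and corrected for dye. A value table deposited by the authors holds log2 units. On both arrays it followed the scanner ratio of transgenic over wild type (r = 1, slope 1) up to a small constant shift, with column medians of 0, and no source used here gives the filter behind its 8533 rows.

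Signals were processed with limma 3.58.1 in R 4.3.3 (normexp with an offset of 50, loess with span 0.3, control and outlier spots at weight 0), and pool levels add Aquantile scaling between arrays. The files as used here hold no spot means, so medians were used, as planned. Ratios were turned by the dyes in the labels. Probes were named through RefSeq accessions (GRCm38.p6, 27816 probes matched), and a gene took its brightest detected probe. The array annotation cites another build, so only RefSeq coordinates of the printed sequences are given. The 1.5-fold rule was run on simulated data with known changes.

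The members and lists were chosen with earlier results of these data known. Named genes were all members and, from each other list, the calls and up to 2 genes at either end. The markers named were chosen after their values were seen. Alternatives covered background, offset, centring, scaling, probe rule, detection, each array alone, the scanner ratios and the deposited table. The number of arrays limits the precision.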

Additional observations from a re-analysis of the deposited data

How the results depend on the processing

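The ratio of Asns, which has 1 probe, could not change with the probe rule or the detection filters. With both arrays kept, the other settings gave 1.21 (the deposited table) to 1.46 (without background subtraction), apart from 0.41 with median centring, where its call ended. On single arrays it was 0.81 and 1.97. The count of members called was 2 under the scanner ratios (Asns higher, Ddit3 lower), 0 at 2-fold, and 2 to 4 on single arrays. With median centring it was 1, which was Atf4 and not Asns. Of all detected genes the same settings called 8.39% (scanner ratios), 0.594% (2-fold), 13.4% to 20.3% (single arrays) and 5.33% (median centring). The members' median was 0.18 in the deposited table, 0.28 for detection in both pools, which left 6 members, -0.55 with median centring, 0.02 without background subtraction, 0.11 under the scanner ratios and 0.091 to 0.14 on single arrays, against -0.08 in the setting used, so it has no settled sign. Over all 10433 detected genes 231 were called in the setting used, 62 at 2-fold, 389 with an offset of 16, 556 with median centring, 875 under the scanner ratios and 1403 to 2114 on single arrays. The split of higher to lower calls was 95 to 136 in the setting used, 247 to 628 under the scanner ratios, 65 to 128 with the mean over probes and 2 to 554 with median centring. It was 178 to 119 among 6127 genes in the deposited table and 94 to 76 among 6126 genes detected in both pools. Apart from what these settings change by construction, the cause was not tested. The same alternatives for Sqstm1, Hspa5, Xbp1, Dnajb9 and Ctrb1 were chosen after seeing the data. Under all 11 of them Hspa5 and Xbp1 stayed called and lower, but several could not have ended these calls. Neither gene has another detected probe, and both pools were above background, so the probe rule and the detection filters left their values unchanged. A call on both arrays also holds on each array alone, and median centring calls genes almost only lower. Signal over background in the transgenic pool on array 2 limited Ddit3, Trib3 and Shmt2, and Slc7a11 was dim in both pools. No paired analysis was possible because there is 1 pool of each genotype, although each ratio is already a difference within an array.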
